A study of Mus with 9 samples.

Results

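The collagen chains are the genes of the count table whose symbol is Col, a type number, the letter a and a chain number, which is how mouse collagen alpha chain genes are named. The rule was applied to symbols alone and used no measured value. It found 44 of 55421 rows, each with its own symbol and each present in the RefSeq gene table. Of these 44 chains 42 had enough counts to be tested, and Col6a4 and Col19a1 did not.

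The counts come from 9 RNA sequencing libraries of mouse heart tissue in groups of 3. MI_ART libraries (1 to 3) are from mice with myocardial infarction given artesunate, an antimalarial artemisinin derivative dissolved in DMSO. MI libraries (titled 2, 3 and 4) are from infarcted mice given vehicle, and Sham libraries (1 to 3, with titles that begin with CON and end in AF) are from sham-operated mice given vehicle. All animals are labelled wild-type male C57BL/6J mice aged 8 to 10 weeks, and infarction was made by tying off the left anterior descending artery permanently. The labels disagree on the dose: one protocol gives 25 mg/kg daily for 7 days after surgery, and the design text gives 10 mg/kg on alternate days from 2 days before surgery until day 7. One field says rats, a further group is announced but not described, and the RNA extraction is given in 2 ways. The day of harvest is not stated, nor whether each library is a separate animal, so the p-values speak only to how much these libraries vary, which may be technical. The tissue is given as atria or left atrium, but ventricular transcripts were present in every library: Myl2, the ventricular myosin light chain, had 945, 977 and 1536 CPM in MI_ART 1 to 3, 846, 816 and 455 CPM in MI 2 to 4, and 2988, 2966 and 3785 CPM in Sham 1 to 3. Which chamber a collagen transcript came from was not tested.

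Collagens are proteins of 3 alpha chains wound into a helix. Most are secreted, the transmembrane collagens are anchored in the cell membrane, and some types, such as type IV, occur in several combinations of chains. Types I and III form the thick and thin fibrils of the heart's interstitium, made mainly by fibroblasts, and are laid down as scar after infarction. Types V and XI start and regulate fibrils, types XII, XIV and XVI sit on fibril surfaces, type IV forms the sheet of basement membranes, type VI forms beaded filaments near cells, and types XV and XVIII lie beside basement membranes.

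Library totals ranged from 68046341 to 83685313 counts. Levels are given in CPM, counts scaled to the library total after multiplying that total by its TMM factor. These factors were 1.14 to 1.17 in MI_ART, 1.19 to 1.28 in MI and 0.624 to 0.744 in Sham, while mitochondrially encoded genes took 23.0% to 25.5%, 12.6% to 20.6% and 37.7% to 43.1% of the counts of these groups. CPM rises with transcript length, so no order between chains is read from it. A count of 3 was worth 0.0322 to 0.0592 CPM. Of the 44 chains 13 averaged at least 100 CPM in 1 or more groups, 7 reached 10 to 100 CPM, 16 reached 1 to 10 CPM, and 8 stayed under 1 CPM in every group.

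Infarction was accompanied by higher levels of most collagen chains, with or without artesunate. In MI_ART 23 of the 42 tested chains were higher than in Sham, 0 were lower and 19 did not pass (edgeR quasi-likelihood test, Benjamini-Hochberg adjusted p under 0.05 over 19326 genes). Over all genes 20.3% passed, 12.9% higher and 7.41% lower. In MI 24 chains were higher than in Sham, 3 were lower (Col4a3, Col6a6 and Col25a1) and 15 did not pass, against 33.1% of all genes called, 18.8% higher and 14.3% lower. Both comparisons use the same Sham libraries. The chains called higher were 2.54-fold to 39.6-fold above Sham in MI_ART and 2.97-fold to 36.8-fold above Sham in MI. The median log2 fold change of the 42 chains was 1.50 in MI_ART and 1.85 in MI, beside 0.01 and 0.04 for all tested genes. In bulk RNA more cells that make collagen and more collagen RNA per cell cannot be told apart.

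The lower calls depended on scaling. With total counts in place of TMM factors, 27 chains were higher and 0 lower in MI_ART, where 42.2% of all genes were called. In MI 30 were higher and 0 lower, where 52.6% of all genes were called. This scaling moved the median log2 fold change of all genes to 0.75 in MI_ART and 0.88 in MI, and the part of all called genes that was higher to 98.5% (63.5% with TMM) in MI_ART and to 93.7% (56.7% with TMM) in MI.

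For most chains the infarcted and Sham libraries did not overlap. In MI_ART 26 chains had every library above every Sham library and 2 had every library below, whereas 25.4% of all genes lay wholly above and 22.8% wholly below (48.2% together). In MI 28 chains lay wholly above Sham and 4 wholly below, beside 25.7% and 23.2% of all genes (48.9% together). At an unadjusted p under 0.05 stood 27 chains in MI_ART against Sham, where 33.3% of all genes did, and 32 chains in MI against Sham, where 43.9% did. All 13 chains at 100 CPM or more were called higher in both comparisons, and of the 6 tested chains under 1 CPM 0 were called in either. These cuts used the highest of the group means, so a chain could reach 100 CPM through infarcted libraries alone. Col1a1, for example, averaged 38.4 CPM in Sham. The share of all genes at the same cuts was not counted, so nothing is read from these numbers.

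**Figure D1:**
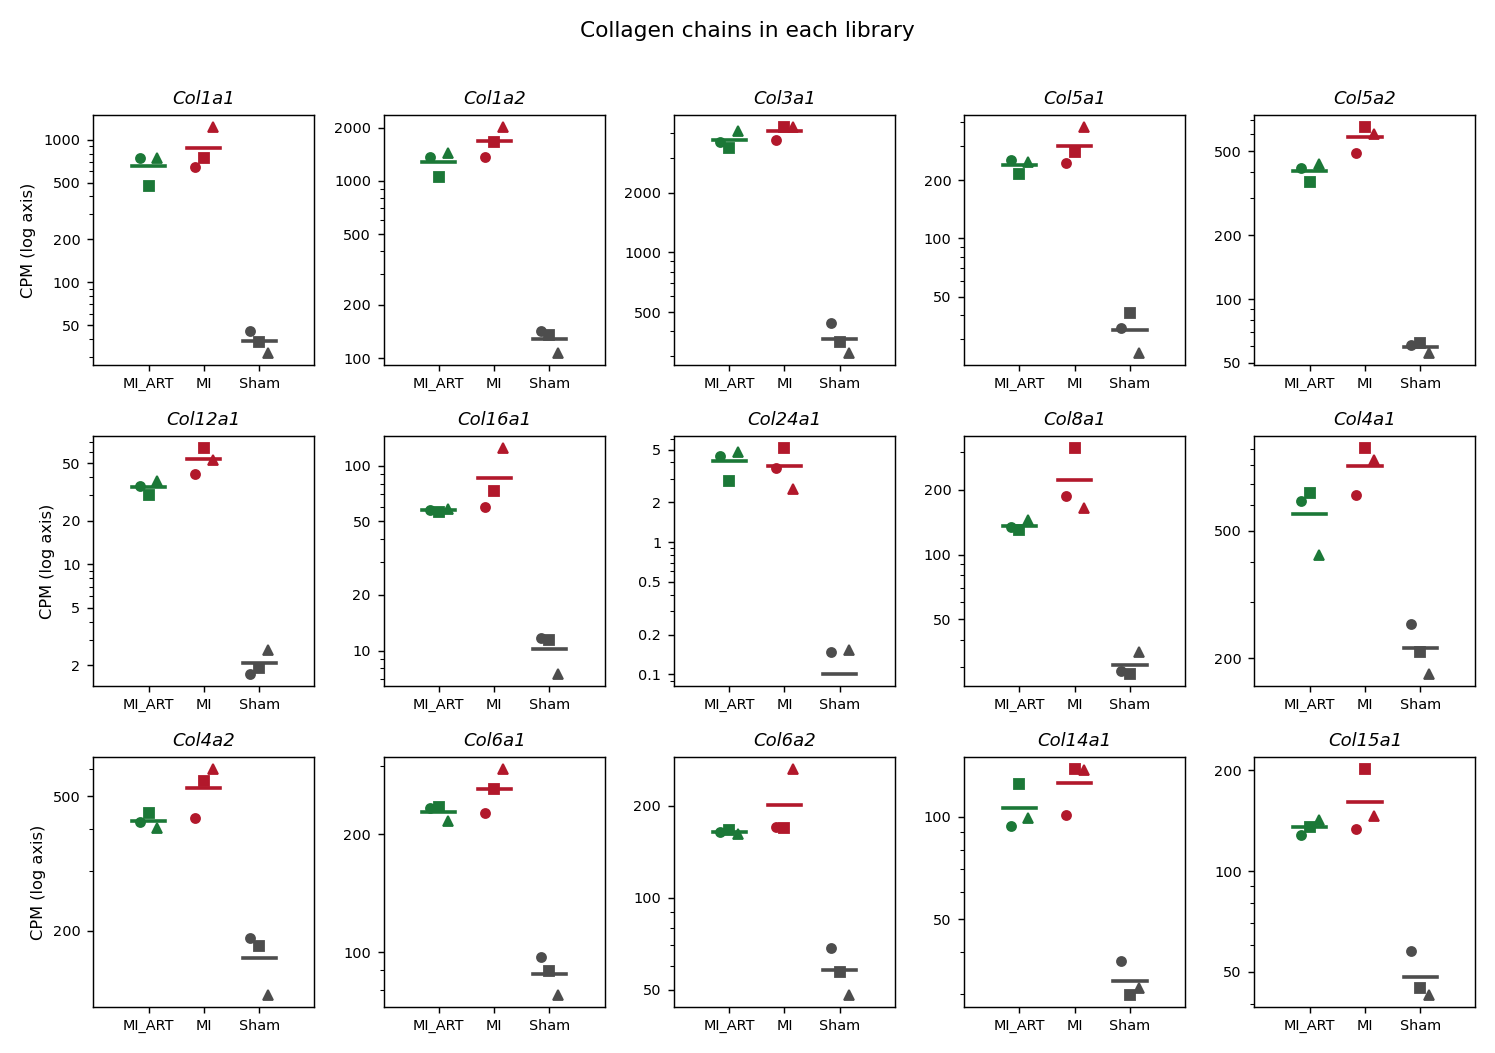
Collagen chains in each library, with MI_ART left, MI in the middle and Sham right in each panel. Points are single libraries in CPM on a log axis (circle, square and triangle for the libraries in number order) and lines are group means. In all 15 chains every MI and MI_ART library stands above every Sham library, and Col24a1 in Sham 2, at 0 CPM, cannot be shown on a log axis.

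Of the 11 fibril-forming chains 9 were higher in each infarcted group, beside 12.9% of all genes in MI_ART and 18.8% in MI. The class had a median log2 fold change of 2.83 in MI_ART and 3.41 in MI. Type I collagen is a trimer of Col1a1 and Col1a2 chains. Col1a1 had 747, 477 and 739 CPM in MI_ART 1 to 3, 646, 749 and 1237 CPM in MI 2 to 4, and 45.5, 38.0 and 31.6 CPM in Sham 1 to 3. Its partner Col1a2 had 1363, 1046 and 1436 CPM in MI_ART 1 to 3, 1362, 1663 and 2025 CPM in MI 2 to 4, and 142, 136 and 106 CPM in Sham 1 to 3. Both groups of infarcted libraries lay far above Sham for both genes, and the highest library was MI 4 for each. Col1a1 averaged 654 ± 154 CPM in MI_ART, 877 ± 316 CPM in MI and 38.4 ± 6.96 CPM in Sham (SD, n = 3 each). Its log2 fold change against Sham was 4.09 (SE 0.32, adjusted p = 0.000117) in MI_ART and 4.51 (SE 0.32, adjusted p = 6.09e-05) in MI, and that of Col1a2 was 3.32 (SE 0.23, adjusted p = 8.32e-05) and 3.71 (SE 0.23, adjusted p = 3.16e-05). Col1a1 thus stood 17.0-fold above Sham in MI_ART and 22.9-fold above Sham in MI.

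Col3a1, the single chain of type III collagen, had 3614, 3372 and 4090.2 CPM in MI_ART 1 to 3, 3695, 4261 and 4298 CPM in MI 2 to 4, and 442, 353 and 309.6 CPM in Sham 1 to 3. Its libraries spread little within each group and the infarcted groups did not overlap with Sham, with log2 fold changes of 3.33 (SE 0.20, adjusted p = 4.07e-05) in MI_ART and 3.47 (SE 0.20, adjusted p = 2.61e-05) in MI. Col5a2, a chain of the fibril-nucleating type V and the next protein-coding gene to Col3a1 on chromosome 1 in the GRCm38 build (Col3a1 at 45311538 to 45349706, Col5a2 at 45374331 to 45503282), had 415, 356 and 435 CPM in MI_ART 1 to 3, 491, 653 and 605 CPM in MI 2 to 4, and 60.4, 62.2 and 55.3 CPM in Sham 1 to 3. For Col5a2 the 3 groups were fully separated, with MI highest and Sham lowest. Its log2 fold change against Sham was 2.76 (SE 0.18, adjusted p = 5.65e-05) in MI_ART and 3.30 (SE 0.18, adjusted p = 2.56e-05) in MI. The other type V chains, Col5a1 and Col5a3, were higher by log2 2.83 and 1.68 in MI_ART and by 3.16 and 1.86 in MI.

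Col24a1, a fibrillar chain known from bone and cornea, had 4.50, 2.90 and 4.79 CPM in MI_ART 1 to 3, 3.65, 5.18 and 2.50 CPM in MI 2 to 4, and 0.147, 0 and 0.153 CPM in Sham 1 to 3. It was close to absent from Sham, with 8, 0 and 8 counts in Sham 1 to 3, and was called higher in MI_ART by log2 5.31 (SE 0.72, adjusted p = 0.000983) and in MI by 5.20 (SE 0.72, adjusted p = 0.000614). Col27a1, another fibrillar chain, stood at 10.1 ± 1.05 CPM in MI_ART, 12.3 ± 1.57 CPM in MI and 3.34 ± 0.618 CPM in Sham (SD, n = 3 each) and was called in both comparisons. Col11a1, a type XI chain, was higher by log2 2.97 (SE 0.82, adjusted p = 0.03) in MI_ART and 3.50 (SE 0.83, adjusted p = 0.0101) in MI. Its MI_ART call was lost with limma-voom (adjusted p = 0.0797) and without both MI 4 and MI_ART 3 (adjusted p = 0.0902), MI_ART 1 (0.0628), MI_ART 3 (0.103), Sham 2 (0.0643) or Sham 3 (0.113), and its adjusted p was 0.000444 to 0.113 over 20 alternatives. The second type XI chain, Col11a2, had 2.73 ± 0.116 CPM in MI_ART, 2.25 ± 1.02 CPM in MI and 2.48 ± 0.841 CPM in Sham (SD, n = 3 each) and did not pass in either comparison. Col2a1, the main collagen of cartilage, had only 34 counts over the MI_ART libraries, 78 over MI and 4 over Sham, and was not called (adjusted p = 0.422 and 0.193).

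Among the 8 tested FACIT chains, which bind to fibril surfaces, 4 were higher in each infarcted group and 0 were lower. Over all genes 12.9% were higher and 7.41% lower in MI_ART, and 18.8% higher and 14.3% lower in MI. Col12a1, the chain of type XII collagen, had 34.7, 30.0 and 37.4 CPM in MI_ART 1 to 3, 42.0, 64.0 and 52.9 CPM in MI 2 to 4, and 1.73, 1.92 and 2.57 CPM in Sham 1 to 3. The 3 groups were fully separated, MI above MI_ART and both above Sham, and the log2 fold change against Sham was 4.04 (SE 0.24, adjusted p = 4.07e-05) in MI_ART and 4.68 (SE 0.25, adjusted p = 2.56e-05) in MI, or 16.4-fold and 25.6-fold. Col14a1, the chain of type XIV, had 93.7, 125 and 99.5 CPM in MI_ART 1 to 3, 101, 139 and 137 CPM in MI 2 to 4, and 37.6, 29.8 and 31.4 CPM in Sham 1 to 3. All infarcted libraries were above Sham, with log2 fold changes of 1.69 (SE 0.19, adjusted p = 0.000409) in MI_ART and 1.94 (SE 0.20, adjusted p = 0.000143) in MI. Within a library the ratio of Col12a1 to Col14a1 counts, which transcript length cannot shift between libraries, was 0.370, 0.240 and 0.376 in MI_ART 1 to 3, 0.414, 0.461 and 0.385 in MI 2 to 4, and 0.0461, 0.0642 and 0.0818 in Sham 1 to 3. Every infarcted library thus had a higher ratio than every Sham library, and every MI_ART library a lower one than every MI library.

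Col16a1, also a fibril-associated chain, had 57.4, 56.3 and 58.7 CPM in MI_ART 1 to 3, 60.2, 73.1 and 126 CPM in MI 2 to 4, and 11.7, 11.4 and 7.43 CPM in Sham 1 to 3. The MI_ART libraries agreed closely with each other, MI 4 stood above the other MI libraries, and both groups lay above Sham, by log2 2.49 (SE 0.29, adjusted p = 0.000443) and 3.08 (SE 0.30, adjusted p = 0.000122). The type IX chains are known from cartilage. Col9a2 had 0.0987, 0.437 and 0.776 CPM in MI_ART 1 to 3, 1.55, 2.14 and 2.20 CPM in MI 2 to 4, and 0, 0.0790 and 0.153 CPM in Sham 1 to 3. Sham held 0, 4 and 8 counts. Col9a2 was not called in MI_ART (log2 2.48, SE 0.95, adjusted p = 0.0964), whose libraries overlapped with Sham, and was called in MI (4.64, SE 1.00, adjusted p = 0.00593). Col9a3 was called in MI_ART (log2 2.95, SE 0.91, adjusted p = 0.0456) and not in MI (2.01, SE 0.89, adjusted p = 0.109). The Col9a3 call was lost in 9 of 20 alternative analyses, among them without both MI 4 and MI_ART 3 (adjusted p = 0.0680), MI 2 (0.0525), MI 3 (0.0671), MI_ART 1 (0.130), MI_ART 2 (0.0809), MI_ART 3 (0.0850), Sham 1 (0.0524) or Sham 3 (0.124), and its adjusted p was 0.00172 to 0.13 over 20 alternatives. The span of Col9a3 overlaps by 237 bases with that of its neighbour Tcfl5, which held 70 counts over the 9 libraries against 437 for Col9a3. Total-count scaling and DESeq2 also called Col9a3 in MI. Col9a1 had 9 counts over MI_ART, 46 over MI and 21 over Sham and was not called. Beside these genes, the 6 listed chondrocyte markers summed to 9.31 to 10.9 CPM in MI_ART, 7.82 to 10.9 CPM in MI and 3.50 to 5.11 CPM in Sham. Of the 5 tested Sox9 and Matn3 were higher in both infarcted groups and Hapln1 was lower in MI. Over all genes 12.9% were higher in MI_ART and 18.8% in MI, and 14.3% were lower in MI. Matn1 and Matn3 were at 0 in every Sham library, and elsewhere Matn1 reached at most 0.148 CPM. The part of such cells in the type IX result was not tested. Col20a1 and Col22a1, the remaining tested FACIT chains, did not pass.

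Type IV collagen split by chain. Col4a1 and Col4a2, which assemble into the network found in all basement membranes, were higher in both infarcted groups. Col4a1 had 619, 655 and 420.0 CPM in MI_ART 1 to 3, 646, 908 and 829 CPM in MI 2 to 4, and 256, 209.6 and 178 CPM in Sham 1 to 3. Its neighbour Col4a2 had 419, 445 and 403 CPM in MI_ART 1 to 3, 430.3, 556 and 604 CPM in MI 2 to 4, and 190.5, 180.0 and 129 CPM in Sham 1 to 3. Each infarcted library was above each Sham library, and MI_ART 3 was the lowest infarcted library for both. The log2 fold changes against Sham were 1.40 (SE 0.23, adjusted p = 0.0027) and 1.34 (SE 0.20, adjusted p = 0.00151) for Col4a1 and Col4a2 in MI_ART, and 1.89 (SE 0.23, adjusted p = 0.00035) and 1.67 (SE 0.20, adjusted p = 0.00031) in MI. The 2 genes lie on chromosome 8 at 11198423 to 11312889 and 11312805 to 11449287 and overlap by 85 bases.

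Col4a3 and Col4a4, which with Col4a5 form the network known from the kidney filter, went the other way or did not pass. Col4a3 had 3.19, 7.02 and 3.54 CPM in MI_ART 1 to 3, 5.13, 4.02 and 2.33 CPM in MI 2 to 4, and 7.92, 7.46 and 10.0 CPM in Sham 1 to 3. All MI and MI_ART libraries were below all Sham libraries. The log2 fold change was -0.88 (SE 0.37, adjusted p = 0.124) in MI_ART, which did not pass, and -1.15 (SE 0.37, adjusted p = 0.039) in MI, which did. The MI call was lost in 9 of 20 alternatives, among them total-count scaling (log2 -0.30, adjusted p = 0.503) and without both MI 4 and MI_ART 3 (adjusted p = 0.0922), MI 3 (0.0812), MI 4 (0.0891), Sham 1 (0.0752), Sham 2 (0.0672) or Sham 3 (0.121), and its adjusted p was 0.0114 to 0.503 over 20 alternatives. Col4a4, which lies beside Col4a3 on chromosome 1 (82448419 to 82587034, with Col4a3 at 82586921 to 82722059), had 5.98, 14.8 and 7.01 CPM in MI_ART 1 to 3, 8.66, 10.0 and 5.47 CPM in MI 2 to 4, and 14.6, 13.5 and 16.1 CPM in Sham 1 to 3. Its MI libraries were below Sham and its MI_ART libraries overlapped with Sham, and it did not pass (log2 -0.67, SE 0.35, adjusted p = 0.216 in MI_ART, and -0.87, SE 0.35, adjusted p = 0.0832 in MI). Without MI_ART 2 both Col4a3 and Col4a4 were called lower in MI_ART than in Sham, and Col4a4 also in MI. Col4a5 stood at 78.9 ± 17.2 CPM in MI_ART, 88.6 ± 24.2 CPM in MI and 76.9 ± 4.29 CPM in Sham, and Col4a6, its partner in smooth muscle basement membranes, at 8.83 ± 5.85, 9.40 ± 1.47 and 7.69 ± 5.98 CPM (SD, n = 3 each). Neither passed, with log2 fold changes in MI of 0.20 (95% interval -0.31 to 0.72) and 0.29 (95% interval -0.95 to 1.53).

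**Figure D2:**
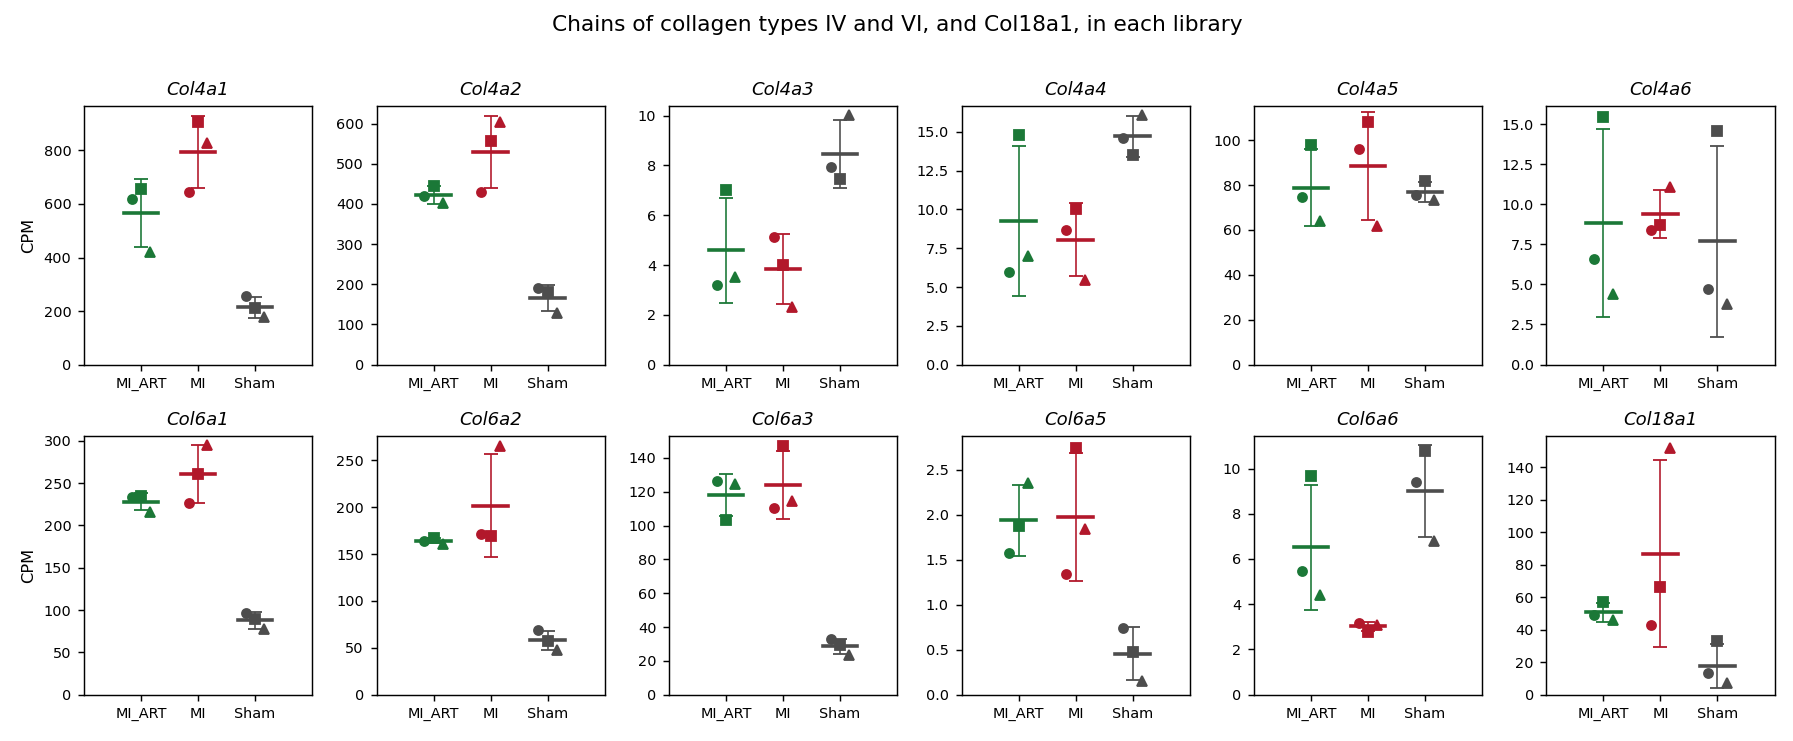
Chains of types IV and VI and Col18a1 in each library, in CPM, with MI_ART left, MI in the middle and Sham right. Points are single libraries (circle, square and triangle in number order), lines are means and bars are 1 SD (n = 3). Col4a1, Col4a2, Col6a1, Col6a2, Col6a3 and Col6a5 stand above Sham in every infarcted library, Col4a3 stands below it, and Col6a6 is lowest in MI.

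Type VI collagen rose through its main chains. Col6a1 had 233, 235 and 216 CPM in MI_ART 1 to 3, 227, 261 and 295 CPM in MI 2 to 4, and 96.9, 89.4 and 77.5 CPM in Sham 1 to 3. Col6a2, which lies next to Col6a1 on chromosome 10, had 164, 167 and 161 CPM in MI_ART 1 to 3, 171, 169 and 265 CPM in MI 2 to 4, and 68.6, 57.4 and 48.0 CPM in Sham 1 to 3. Infarcted libraries were above Sham throughout, and MI 4 was the highest for both. Against Sham the log2 fold change of Col6a1 was 1.38 (SE 0.16, adjusted p = 0.000471) in MI_ART and 1.57 (SE 0.16, adjusted p = 0.000157) in MI, and that of Col6a2 was 1.50 (SE 0.22, adjusted p = 0.00132) and 1.80 (SE 0.22, adjusted p = 0.000321). Col6a3, the third chain of the common type VI trimer, rose by log2 2.04 in MI_ART and 2.11 in MI.

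Col6a5 and Col6a6, which code for chains resembling Col6a3, are neighbours on chromosome 9 (Col6a5 at 105856070 to 105962463, Col6a6 at 105689417 to 105828246) and moved in opposite directions in MI. Col6a5 had 1.58, 1.87 and 2.35 CPM in MI_ART 1 to 3, 1.34, 2.74 and 1.84 CPM in MI 2 to 4, and 0.737, 0.474 and 0.153 CPM in Sham 1 to 3. It was called higher in both groups, by log2 2.08 (SE 0.54, adjusted p = 0.0222) in MI_ART and 2.11 (SE 0.54, adjusted p = 0.0134) in MI. Col6a6 had 5.49, 9.66 and 4.41 CPM in MI_ART 1 to 3, 3.19, 2.79 and 3.09 CPM in MI 2 to 4, and 9.42, 10.8 and 6.78 CPM in Sham 1 to 3. The MI libraries were tightly grouped below all others, and MI_ART overlapped with Sham. Col6a6 was not called in MI_ART (log2 -0.46, SE 0.31, adjusted p = 0.332) and was lower in MI (-1.57, SE 0.31, adjusted p = 0.00398). The Col6a5 call in MI_ART was lost without both MI 4 and MI_ART 3 (adjusted p = 0.0575), MI_ART 3 (0.0710) or Sham 2 (0.0656), and its adjusted p was 0.000835 to 0.071 over 20 alternatives. In MI the Col6a5 call was lost with a replicate block in the fit (adjusted p = 0.0564). The Col6a6 call in MI was lost under total-count scaling (log2 -0.75, adjusted p = 0.0819), and its adjusted p was 1.89e-05 to 0.0819 over 20 alternatives. Col6a4, the third gene of this cluster, had 22 counts over MI_ART, 17 over MI and 0 over Sham, and was too low to test.

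Of the short-chain collagens, which form hexagonal networks in vessel walls and under the corneal endothelium, both type VIII chains were higher in both infarcted groups. Col8a1 had 135, 130.1 and 144 CPM in MI_ART 1 to 3, 187, 315 and 165 CPM in MI 2 to 4, and 28.7, 27.6 and 35.3 CPM in Sham 1 to 3. Col8a2 had 2.34, 2.80 and 4.21 CPM in MI_ART 1 to 3, 5.99, 10.6 and 12.6 CPM in MI 2 to 4, and 0.700, 1.46 and 1.15 CPM in Sham 1 to 3. For both genes the 3 groups were separated, with MI highest and Sham lowest. The log2 fold change of Col8a1 was 2.16 (SE 0.25, adjusted p = 0.00042) in MI_ART and 2.86 (SE 0.26, adjusted p = 0.0001) in MI, and that of Col8a2 was 1.50 (SE 0.38, adjusted p = 0.0211) and 3.14 (SE 0.40, adjusted p = 0.00041). The Col8a2 call in MI_ART against Sham was lost with limma-voom (adjusted p = 0.0743) and without MI_ART 3 (adjusted p = 0.0802), Sham 1 (0.0730) or Sham 3 (0.0682), and its adjusted p was 0.00147 to 0.0802 over 20 alternatives. Col10a1, known from cartilage about to turn to bone, had 38 counts over MI_ART, none over MI and 18 over Sham, all of the Sham counts in Sham 1. It lies inside the span of Nt5dc1, and it is not known here whether reads were assigned by strand, so these counts may belong to either gene.

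Col7a1, the anchoring fibril chain that ties epithelial basement membranes down, had 1.73, 2.04 and 2.35 CPM in MI_ART 1 to 3, 1.96, 2.88 and 3.35 CPM in MI 2 to 4, and 0.848, 0.454 and 0.976 CPM in Sham 1 to 3. All infarcted libraries were above Sham, by log2 1.42 (SE 0.37, adjusted p = 0.0234) in MI_ART and 1.84 (SE 0.37, adjusted p = 0.00444) in MI. The MI_ART call was lost without both MI 4 and MI_ART 3 (adjusted p = 0.0510), MI_ART 3 (0.0791), Sham 1 (0.0562) or Sham 2 (0.0648), and its adjusted p was 0.00132 to 0.0791 over 20 alternatives. Col15a1, a multiplexin of the zone between basement membrane and interstitium, had 128, 135 and 142 CPM in MI_ART 1 to 3, 134, 202 and 146 CPM in MI 2 to 4, and 57.8, 44.6 and 42.6 CPM in Sham 1 to 3. The infarcted libraries stood above Sham with log2 fold changes of 1.48 (SE 0.20, adjusted p = 0.00096) and 1.73 (SE 0.20, adjusted p = 0.00027). Col18a1, the multiplexin from which endostatin is cleaved, had 49.2, 56.7 and 45.8 CPM in MI_ART 1 to 3, 42.6, 66.0 and 152 CPM in MI 2 to 4, and 13.3, 33.1 and 7.22 CPM in Sham 1 to 3. MI 4 and Sham 2 stood far above the other libraries of their groups, although the groups of infarcted libraries did not overlap with Sham. Col18a1 was not called in MI_ART (log2 1.50, SE 0.56, adjusted p = 0.0907) and was called in MI (2.28, SE 0.58, adjusted p = 0.0134). Col18a1 was called in MI_ART with DESeq2, limma-voom or total-count scaling and without Sham 2 or MI 4. The MI call was lost without both MI 4 and MI_ART 3 (adjusted p = 0.0576) or Sham 1 (0.0540) and with a replicate block in the fit (0.0633). Its adjusted p was 9.17e-05 to 0.0633 over 20 alternatives.

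Of the 4 tested transmembrane chains 0 were called higher in either infarcted group. Over all genes 12.9% were higher in MI_ART and 18.8% in MI, and 4 chains are too few to differ from these shares. Col23a1 had 2.86, 2.81 and 1.48 CPM in MI_ART 1 to 3, 4.06, 3.70 and 6.00 CPM in MI 2 to 4, and 4.29, 3.38 and 4.48 CPM in Sham 1 to 3. Its MI libraries overlapped with Sham and its MI_ART libraries lay below both, but neither comparison with Sham passed (log2 -0.76, SE 0.32, adjusted p = 0.123 in MI_ART, and 0.18, SE 0.32, adjusted p = 0.699 in MI). Col25a1, known from motor neuron and muscle development, had 1.21, 0.412 and 0.394 CPM in MI_ART 1 to 3, 0.364, 0.193 and 0.129 CPM in MI 2 to 4, and 1.38, 0.869 and 0.842 CPM in Sham 1 to 3. The MI_ART libraries overlapped with Sham (log2 -0.62, SE 0.60, adjusted p = 0.525), and the MI libraries lay below Sham (-2.17, SE 0.63, adjusted p = 0.0241). The MI call was lost without both MI 4 and MI_ART 3 (adjusted p = 0.0612), MI 3 (0.0732), MI 4 (0.0599) or Sham 1 (0.0799). It was also lost with a replicate block in the fit (adjusted p = 0.0849) and under total-count scaling (log2 -1.35, adjusted p = 0.0947). Its adjusted p was 0.00376 to 0.0947 over 19 alternatives. Col13a1 had 0.481, 0.912 and 0.123 CPM in MI_ART 1 to 3, 0.968, 0.675 and 0.506 CPM in MI 2 to 4, and 1.27, 0.513 and 1.32 CPM in Sham 1 to 3. Its groups overlapped, and neither it nor Col17a1, the collagen of hemidesmosomes, was called. Col17a1 lay wholly above Sham in MI_ART (log2 1.86, SE 1.09, adjusted p = 0.27) and overlapped with Sham in MI.

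The 2 chains outside these classes did not pass. Col26a1 had 0.469, 0.550 and 0.752 CPM in MI_ART 1 to 3, 0.467, 1.28 and 0.948 CPM in MI 2 to 4, and 0.461, 0.355 and 0.172 CPM in Sham 1 to 3. Col28a1 had 1.41, 1.90 and 1.40 CPM in MI_ART 1 to 3, 0.888, 2.25 and 1.16 CPM in MI 2 to 4, and 1.49, 1.05 and 0.785 CPM in Sham 1 to 3. Both infarcted groups lay above Sham for Col26a1, barely so at the nearest libraries, with adjusted p of 0.332 in MI_ART and 0.0719 in MI. Without MI 2, with DESeq2 or with total-count scaling Col26a1 was called higher in MI. For Col28a1 all groups overlapped. Col19a1 had 10 counts over MI_ART, 17 over MI and 5 over Sham.

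**Figure D3:**
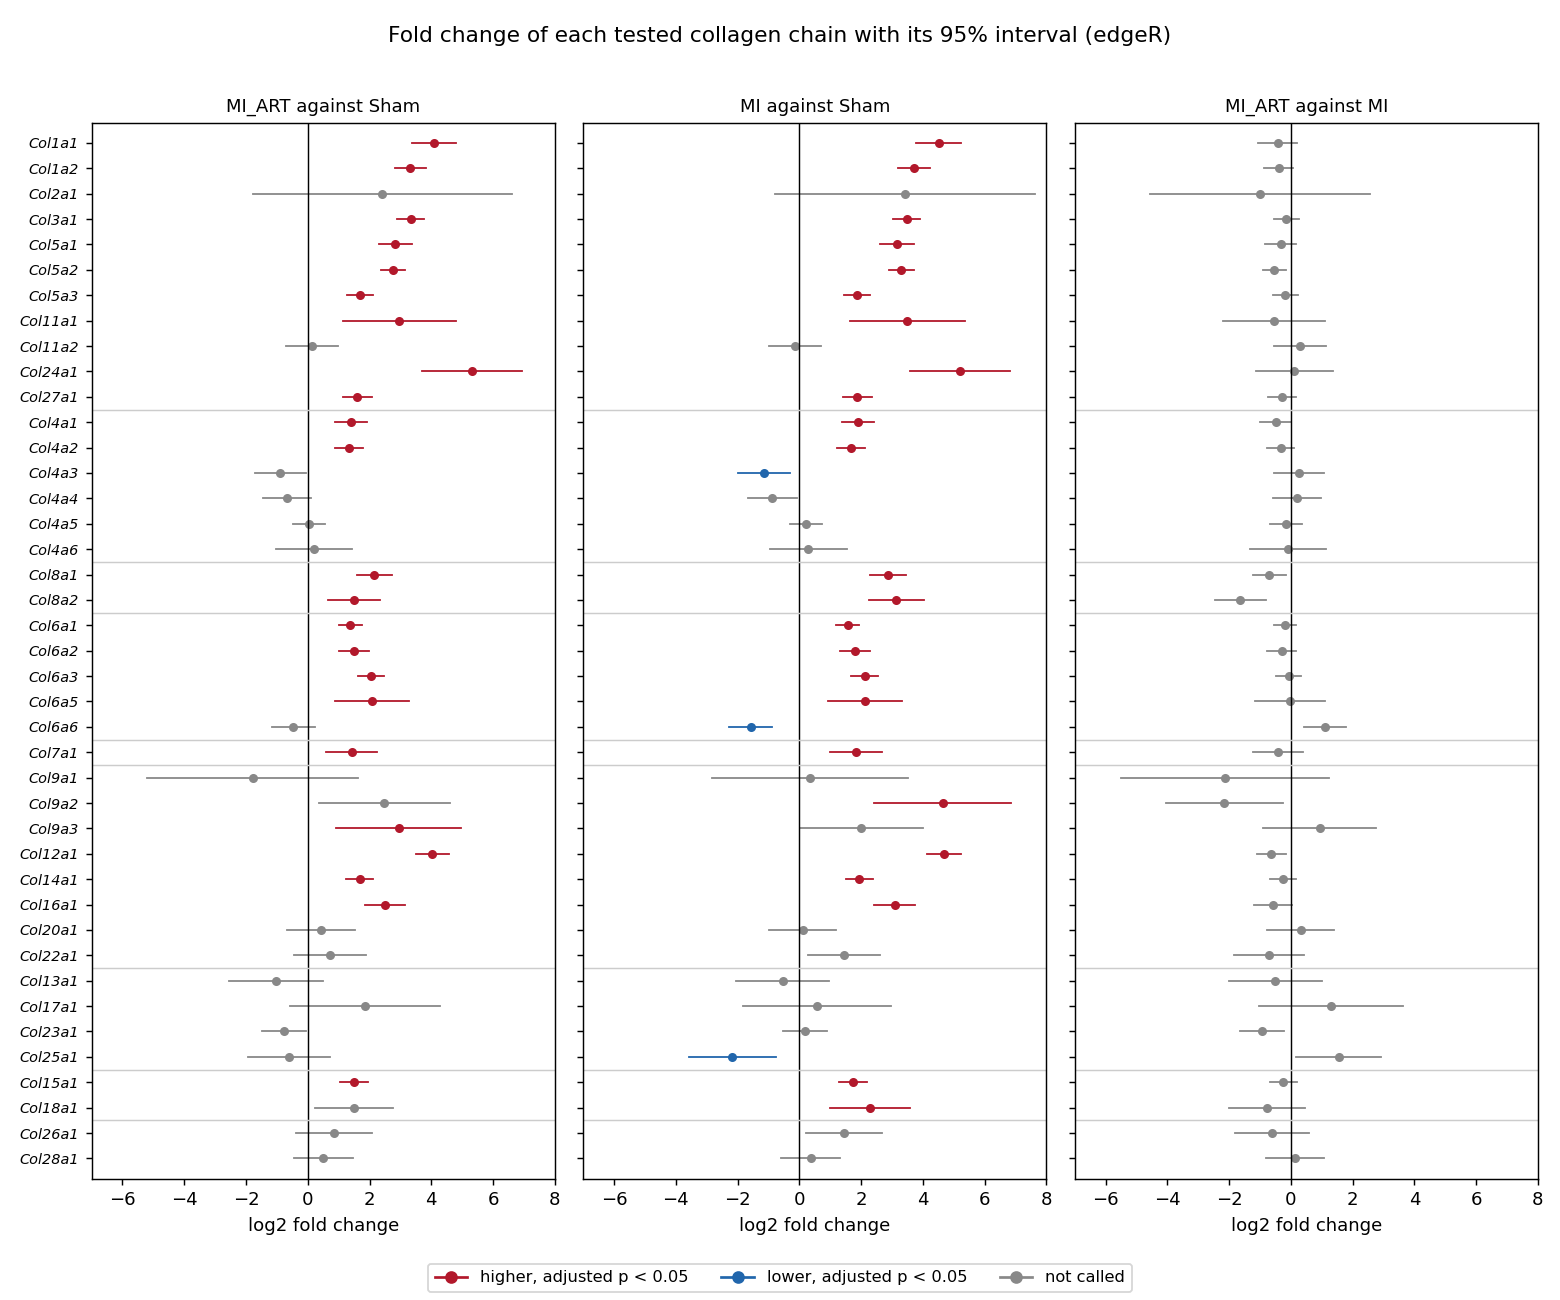
Log2 fold changes of 41 tested collagen chains with 95% intervals from edgeR, for MI_ART against Sham, MI against Sham and MI_ART against MI, grouped by class from fibril-forming chains at the top. Red and blue mark chains called higher and lower at an adjusted p under 0.05 and grey marks those that were not called. Most intervals lie right of 0 in both comparisons with Sham, all chains are grey in MI_ART against MI, and Col10a1, with no counts in MI, is left out.

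As a whole the collagen chains took a larger share of the library after infarction. They held 1.00%, 0.894% and 1.05% of all gene counts in MI_ART 1 to 3, 1.05%, 1.36% and 1.49% in MI 2 to 4, and 0.119%, 0.112% and 0.0779% in Sham 1 to 3. The MI_ART and MI libraries overlapped at their edges, and all of them were above all Sham libraries. The mean shares were 0.982% ± 0.0795 in MI_ART, 1.30% ± 0.227 in MI and 0.103% ± 0.0219 in Sham (SD, n = 3 each). Two-sided exact permutation tests gave p = 0.1 for MI_ART against Sham and for MI against Sham, the smallest p that 3 against 3 allows, and p = 0.2 for MI_ART against MI (0.15, 0.15 and 0.2 after Benjamini-Hochberg adjustment over the 3 comparisons). Because mitochondrial RNA took more of the Sham libraries, the share was also taken over other counts, where it was 1.29% ± 0.109 in MI_ART, 1.57% ± 0.214 in MI and 0.171% ± 0.0304 in Sham. Without Col1a1, Col1a2 and Col3a1 the share of all counts was 0.329% ± 0.0118, 0.468% ± 0.0868 and 0.0655% ± 0.0135 in MI_ART, MI and Sham, and by this measure every MI_ART library was below every MI library (exact permutation p = 0.1, adjusted 0.1). Counting error is small at these numbers, with 65157 to 1078882 collagen counts per library.

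The make-up of the collagen counts also differed from Sham. Fibril-forming chains held 74.8%, 70.6% and 78.2% of the collagen counts in MI_ART 1 to 3, 73.9%, 71.5% and 74.2% in MI 2 to 4, and 44.7%, 43.2% and 43.6% in Sham 1 to 3. Type IV chains held 13.0% ± 2.87 in MI_ART, 13.8% ± 0.940 in MI and 33.2% ± 0.455 in Sham, and type VI chains 6.15% ± 0.471, 5.70% ± 0.239 and 12.5% ± 0.0237 (SD, n = 3 each). Infarcted and Sham libraries did not overlap in any of these 3 classes, and MI_ART and MI overlapped in each. These are shares of counts, which weigh long transcripts more, and not shares of molecules. Col3a1 alone gave 43.5% ± 1.90 of collagen counts in MI_ART, 39.6% ± 2.54 in MI and 24.9% ± 1.51 in Sham.

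**Figure D4:**
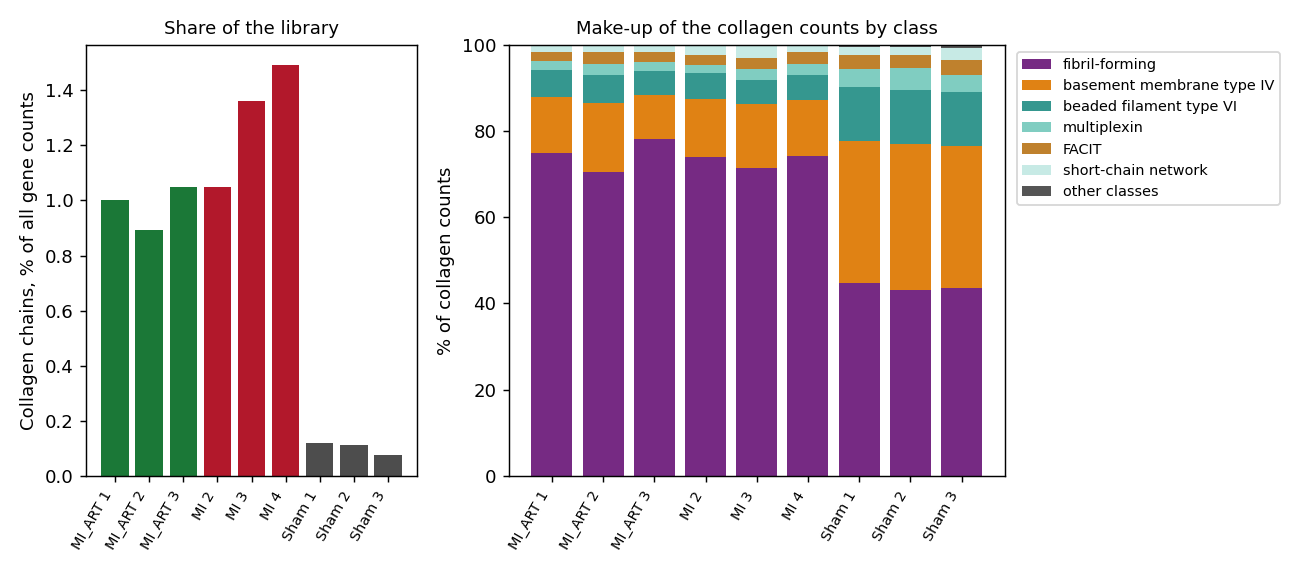
Left, collagen chains as a percent of all gene counts in each of the 9 libraries. Right, the percent of each library's collagen counts by collagen class. The share is 0.894% to 1.49% in infarcted libraries and at most 0.119% in Sham, and fibril-forming chains make up 70.6% to 78.2% of collagen counts in infarcted libraries and 43.2% to 44.7% in Sham.

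Ratios between chains within a library need no scaling factor, and 9 of them were compared in 3 pairs of groups, 27 tests in all. Col1a1 over Col1a2, the chains of type I collagen, was 0.506 ± 0.0466 in MI_ART, 0.512 ± 0.0867 in MI and 0.299 ± 0.0203 in Sham (SD, n = 3 each). Every infarcted library was above every Sham library. Col1a1 over Col3a1 was 0.176 ± 0.0328 in MI_ART, 0.213 ± 0.0650 in MI and 0.104 ± 0.00300 in Sham, Col6a3 over Col6a1 was 0.519 ± 0.0704, 0.479 ± 0.0877 and 0.324 ± 0.0160, and types I and III over Col4a1 and Col4a2 was 5.86 ± 1.61, 5.04 ± 0.422 and 1.41 ± 0.0526. These 3 ratios were also above Sham in every infarcted library. Col4a2 over Col4a1, Col5a2 over Col5a1 and Col6a2 over Col6a1 overlapped in all 3 pairs of groups. The p was 0.1 at the lowest in these two-sided exact permutation tests, which 3 against 3 cannot go below, and 0.225 after Benjamini-Hochberg adjustment.

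With artesunate no collagen chain passed the test against vehicle after infarction. On simulated data this comparison called 7% of true log2 changes of size 1 and 82% of those of size 2, so 2-fold differences would mostly go uncalled. Of the 42 chains 0 were called by edgeR and 0 by limma-voom, and DESeq2 called 1, Col8a2 (adjusted p = 0.0121), among 93 genes, or 0.481% of all. Over all genes edgeR called 2, or 0.0103%, both lower (0.0103% lower and 0% higher). At an unadjusted p under 0.05 stood 9 chains, against 6.96% of all genes. Of the 42 chains 4 lay wholly above MI and 9 wholly below, beside 7.38% and 6.52% of all genes (13.9% together). The median log2 fold change was -0.29, and 31 of the 42 values were below 0, as were 9723 of the 19326 values of all tested genes, whose median was near 0. Leaving out single MI libraries moved the median and the number of chains at an unadjusted p under 0.05. The median was -0.37 without MI 2, -0.25 without MI 3 and -0.16 without MI 4, and 32, 28 and 33 of the 42 values were below 0. The number of chains at an unadjusted p under 0.05 was 13 without MI 2, 5 without MI 3 and 6 without MI 4. The chains share libraries and cells, so no p is given for this direction.

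Of the 20 chains that reached 10 CPM in a group 19 had a log2 fold change below 0, with values of -0.78 (Col18a1) to 0.20 (Col4a4). For 15 of these 20 the 95% interval lay between -1 and 1, so that a 2-fold difference lay outside it, and for the other 5 (Col1a1, Col8a1, Col12a1, Col16a1 and Col18a1) it did not. Col3a1 had -0.15 (95% interval -0.55 to 0.25), Col1a2 -0.39 (95% interval -0.86 to 0.07) and Col1a1 -0.42 (95% interval -1.05 to 0.20). Among these 5 the intervals of Col8a1, Col12a1, Col16a1 and Col18a1 ran from -1.24 to -0.17, -1.10 to -0.17, -1.21 to 0.03 and -2.02 to 0.46. For chains with few counts the intervals were wide, such as -5.50 to 1.24 for Col9a1.

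The 5 chains with the smallest p in this comparison were Col8a2, Col6a6, Col5a2, Col12a1 and Col23a1, and each had MI_ART and MI libraries that did not overlap. Col8a2, with values given above, averaged 3.12 ± 0.976 CPM in MI_ART and 9.72 ± 3.38 CPM in MI (SD, n = 3 each). Its log2 fold change was -1.64 (SE 0.37, adjusted p = 0.57), lower in 3 of 3 MI_ART libraries than in any MI library. Within a library Col8a1 over Col8a2 was 57.4, 46.5 and 34.2 in MI_ART 1 to 3, 31.2, 29.7 and 13.1 in MI 2 to 4, and 40.9, 18.9 and 30.8 in Sham 1 to 3. MI_ART lay above MI (exact permutation p = 0.1, 0.225 adjusted) and overlapped with Sham. Col6a6 was the chain of the 5 with a positive value, log2 1.11 (SE 0.31, adjusted p = 0.656), at 6.52 ± 2.77 CPM in MI_ART and 3.02 ± 0.209 CPM in MI.

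Col5a2 averaged 402 ± 41.1 CPM in MI_ART and 583 ± 83.4 CPM in MI, with log2 -0.54 (SE 0.17, adjusted p = 0.679). Col12a1 averaged 34.0 ± 3.78 and 53.0 ± 11.0 CPM, with log2 -0.64 (SE 0.21, adjusted p = 0.685). Both stayed above Sham in every MI_ART library. Col23a1 averaged 2.38 ± 0.784 CPM in MI_ART, 4.59 ± 1.24 CPM in MI and 4.05 ± 0.591 CPM in Sham, with log2 -0.94 (SE 0.32, adjusted p = 0.685) against MI. Of the 5 chains 0 passed after adjustment over all genes. Besides these, Col8a1, Col9a2, Col10a1 and Col25a1 had an unadjusted p under 0.05.

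**Figure D5:**
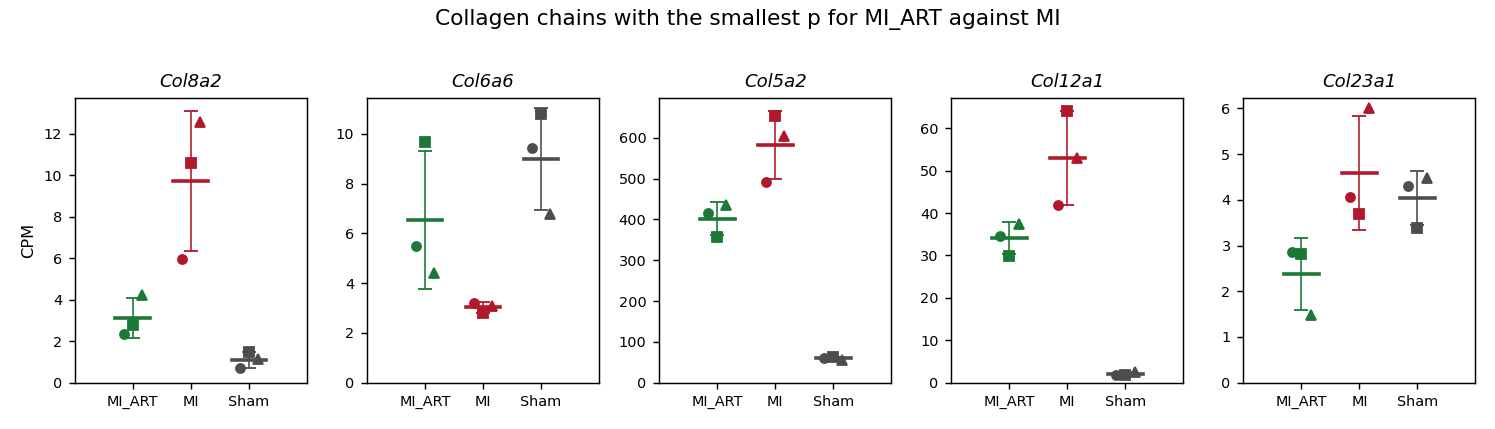
The 5 collagen chains with the smallest p for MI_ART against MI, in CPM by library, with MI_ART left, MI in the middle and Sham right. Points are libraries, lines are means and bars are 1 SD (n = 3). MI_ART lies wholly below MI for Col8a2, Col5a2, Col12a1 and Col23a1 and wholly above it for Col6a6, and none passed after adjustment (0.57 to 0.685).

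Of 21 listed enzymes, chaperones and other genes that modify and fold collagen chains, all tested, 13 were higher and 0 lower in MI_ART against Sham, where 12.9% of all genes were higher and 7.41% lower. In MI 13 were higher and 2 lower (Colgalt2 and Mia2), where 18.8% of all genes were higher and 14.3% lower. P4ha3, a catalytic subunit of prolyl 4-hydroxylase, had 7.06, 4.65 and 9.37 CPM in MI_ART 1 to 3, 7.30, 10.2 and 19.5 CPM in MI 2 to 4, and 0.111, 0.0987 and 0.249 CPM in Sham 1 to 3. It was higher by log2 5.51 (SE 0.54, adjusted p = 0.000217) in MI_ART and 6.32 (SE 0.55, adjusted p = 9.56e-05) in MI. P3h1, a prolyl 3-hydroxylase, rose by log2 1.24 and 1.70, P4hb, the shared subunit of prolyl 4-hydroxylases, by 1.19 and 1.55, and Creb3l1, a transcription factor that acts on type I collagen genes, by 2.37 and 2.91. Colgalt1, which adds galactose to hydroxylysine, had 111, 44.2 and 48.2 CPM in MI_ART 1 to 3, 111, 124 and 139.9 CPM in MI 2 to 4, and 61.7, 63.0 and 50.6 CPM in Sham 1 to 3. MI_ART 1 stood near the MI libraries and MI_ART 2 and 3 below Sham. Colgalt1 was not called in MI_ART (log2 0.21, SE 0.32, adjusted p = 0.699) and was called in MI (1.10, SE 0.32, adjusted p = 0.0259).

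Of 13 genes that trim propeptides or crosslink fibrils 9 were higher in each infarcted group and 0 lower, against the same shares of all genes. Lox, lysyl oxidase, which starts covalent crosslinks, had 160.5, 110.2 and 138 CPM in MI_ART 1 to 3, 207, 261 and 222 CPM in MI 2 to 4, and 6.23, 8.63 and 6.20 CPM in Sham 1 to 3. Its 3 groups were separated, with log2 fold changes against Sham of 4.28 (SE 0.23, adjusted p = 4.07e-05) in MI_ART and 5.03 (SE 0.24, adjusted p = 2.56e-05) in MI. Its relatives Loxl1, Loxl2 and Loxl3 rose by log2 1.76, 2.69 and 2.79 in MI_ART and by 2.33, 2.88 and 3.36 in MI. Adamts2, which removes the amino-terminal propeptide, rose by 1.80 and 2.23.

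Of 12 collagen receptors 11 were tested, and 4 were higher and 0 lower in each infarcted group, beside 12.9% of all genes higher in MI_ART and 18.8% in MI. These were the integrin subunits Itga2 (log2 2.19 in MI_ART, 2.60 in MI) and Itga11 (1.45 and 1.89), the leukocyte inhibitory receptor Lair1 (2.27 and 1.90) and Antxr1, an anthrax toxin receptor that binds collagen (0.76 and 0.73). Ddr2, the receptor kinase for fibrillar collagen, had 49.7, 59.3 and 48.2 CPM in MI_ART 1 to 3, 43.0, 46.3 and 32.8 CPM in MI 2 to 4, and 42.8, 46.4 and 41.9 CPM in Sham 1 to 3. MI_ART lay wholly above both other groups, yet Ddr2 passed neither against Sham (0.26, SE 0.17, adjusted p = 0.325) nor against MI (0.36, SE 0.17, adjusted p = 0.724). Gp6, the platelet collagen receptor, was too low to test.

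Of 8 genes that break down or take up collagen 5 were higher in MI_ART, beside 12.9% of all genes, and 6 in MI, beside 18.8%. The neutrophil collagenase Mmp8 had 7.09, 1.14 and 2.88 CPM in MI_ART 1 to 3 and 2.29, 2.69 and 1.48 CPM in MI 2 to 4, and no count in any Sham library. Set against a floor of 3 counts per Sham library, its group mean was at least 64.6-fold higher in MI_ART and at least 37.5-fold higher in MI. These bounds are for means and not for each library, and MI_ART 1 was the highest library. Mmp14, a membrane collagenase, rose by log2 2.93 in MI_ART and 3.02 in MI, Ctsk, cathepsin K, by 1.48 and 2.01, and Mrc2, a receptor that takes up collagen, by 1.88 and 2.68. In MI_ART against MI no gene of these 4 lists passed. The gene with the smallest p there was Lox (log2 -0.75, SE 0.20, adjusted p = 0.65).

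Marker lists of several cell types were read beside the collagen chains. Over all genes 12.9% were called higher and 7.41% lower in MI_ART against Sham, and 18.8% higher and 14.3% lower in MI. Of 9 listed markers of activated fibroblasts 6 were higher in MI_ART and 8 in MI than in Sham, none was at 0 in any library, and their summed level was 2093 to 2255 CPM in MI_ART, 2674 to 3156 CPM in MI and 283 to 789 CPM in Sham. Of 6 markers of resting fibroblasts 1 was higher and 1 lower in MI_ART, and 2 each were higher and lower in MI. They summed to 1805 to 2613, 1389 to 1865 and 3028 to 3322 CPM in the same order of groups. Gsn was the largest part of the Sham sums, with 713 to 1228, 348 to 737 and 1845 to 2065 CPM. The log2 fold change was above 0 for 4 of the 6 markers in each infarcted group, with medians of 0.34 in MI_ART and 0.17 in MI. All 6 macrophage markers were higher in both infarcted groups, with sums of 1507 to 2985 CPM in MI_ART, 2258 to 2538 CPM in MI and 269 to 420 CPM in Sham. Atrial muscle markers summed to 1308 to 12400.2 CPM in MI_ART, 13458 to 25112 CPM in MI and 1755 to 7361 CPM in Sham, with Bmp10 at 0 in 5 of 9 libraries and at 42.0 CPM in MI 4. Nppa was the largest part of these sums, with 1292 to 9754, 11447 to 20592 and 1176 to 4870 CPM. Of the 6 atrial markers 0 were called against Sham in either infarcted group. Their log2 fold changes were above 0 for 2 of 6 in MI_ART and 6 of 6 in MI. Ventricular muscle, smooth muscle and endothelial markers had lower calls and no higher calls. The lower calls were 2 of 5, 2 of 6 and 1 of 6 genes in MI_ART and 3 of 5, 2 of 6 and 2 of 6 genes in MI. Log2 fold changes were above 0 for 0 of 5, 3 of 6 and 2 of 6 genes in MI_ART. In MI they were above 0 for 0 of 5, 3 of 6 and 4 of 6 genes. Skeletal muscle markers summed to 3.08 to 7.49 CPM in MI_ART, 37.6 to 109 CPM in MI and 1.99 to 4.17 CPM in Sham, and of the 3 tested 1 was higher in MI_ART (Tnnt3) and 2 in MI (Tnnt3 and Tnni2) than in Sham, and Tnnt3 was lower in MI_ART than in MI. The skeletal myosins Myh1 and Myh4 were at 0 in all Sham libraries and reached at most 0.194 CPM elsewhere. The part of any of these cell types in the collagen result was not tested. When MI 4, with that Bmp10 level, and MI_ART 3, in which the atrial light chain Myl7 was at 1.96 CPM, were both left out (a choice made after seeing the data), 19 chains stood higher in MI_ART than in Sham, where 24.9% of all genes were called, and against Sham MI had 23 chains higher and 1 lower, where 31.5% were called.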

How the data were processed

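RNA of mouse heart tissue, labelled as atria, was sequenced in 9 libraries, 3 per group. The authors deposited raw read counts per gene, and per the submitters' processing notes the tools were HISAT, featureCounts 1.5.0-p3 and DESeq 1.8.3 with genome build GRCm38. The handling of strand and of reads with several matches is not given in the sources used here. Counts of 9 of 9 per-sample files equalled those of the series table exactly (tolerance 0). Groups came from the labels. Totals were 68046341 to 83685313 counts, and 3 counts, the floor used for absent genes, were 0.0322 to 0.0592 CPM.

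Genes passing filterByExpr (minimum count 10) were fitted with edgeR 4.0.16 in R 4.3.3, with TMM factors, 1 mean per group over all 9 libraries, quasi-likelihood tests and Benjamini-Hochberg adjustment over all tested genes. Exact permutation tests (scipy 1.17.1) were two-sided. The procedure was tested on simulated data with changes placed on genes above 1 CPM. In MI_ART against MI it called 7% of log2 changes of size 1 and 82% of those of size 2. Against Sham it called 15% and 82% in MI_ART and 10% and 72% in MI. Only 100 genes of each size were changed in a simulation. In the real comparisons with Sham 20.3% of all genes were called in MI_ART and 33.1% in MI, so the simulated percentages need not hold there. Alternatives were DESeq2 1.42.0, limma-voom (limma 3.58.1), other scaling factors and filters, omission of mitochondrial genes or of single libraries, and a replicate block. The members and gene lists were chosen with earlier results of these data known. Values in every library are given for the 2 chains of highest mean CPM in each class, for called chains with the 5 highest and 5 lowest log2 fold changes against Sham, for the 5 chains with the smallest p in MI_ART against MI, and for some others chosen after their values were seen. Coordinates are RefSeq's for GRCm38.p6.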

Additional observations from a re-analysis of the deposited data

How the results depend on the processing

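Among the chains called against Sham and the 5 chains named for MI_ART against MI, 0 changed sign under any alternative. Signs were not stable for other chains: log2 fold changes below 0 in MI against Sham numbered 7, and 5 to 11 over the alternatives. For MI_ART against MI 0 chains were called under every alternative but DESeq2, which called 1 (Col8a2), and 0 when any library was left out. When single libraries were left out, the count of called chains was 18 to 24 in MI_ART against Sham, beside 10.2% to 31.8% of all genes. It was 24 to 28 in MI against Sham, beside 23.8% to 33.7% of all genes. Without MI_ART 2 the 24 chains called in MI_ART against Sham were 22 higher and 2 lower. The difference in collagen share of all counts, in percentage points, was 0.879 for MI_ART against Sham, 1.12 outside mitochondrial counts and 0.264 without Col1a1, Col1a2 and Col3a1, the difference being smaller by construction, and 0.846 to 0.923 without single libraries. For MI against Sham it was 1.20, 0.403 without these 3 genes, and 1.10 to 1.32 without single libraries, and for MI_ART against MI it was -0.444 to -0.223 without single libraries. Libraries of the same number did not vary together (r of -0.046 to 0.0766 in 7 pairs, against -0.119 to 0.1 in other pairs), so the numbers were not used as pairs. With the replicate block 25 chains were called in MI_ART against Sham, 23 in MI against Sham (22 higher, 1 lower) and 0 in MI_ART against MI. Over all genes it called 30.7%, 32.4% and 0.00517% in these comparisons. The block lost Col4a3 (adjusted p = 0.0643), Col6a5 (0.0564), Col18a1 (0.0633) and Col25a1 (0.0849) in MI against Sham and added Col9a2 and Col18a1 in MI_ART against Sham. For those called and named chains 1052 refitted values kept their side of the threshold, 46 lost a call and 1 gained one. Of chains not called at first, DESeq2 added 5 in MI against Sham (Col4a4, Col9a3, Col10a1, Col22a1 and Col26a1) and 2 in MI_ART against Sham (Col9a2 and Col18a1), and total counts added 6 and 4. Over all genes DESeq2 called 39.1% and 26.7% in these comparisons, and total counts 52.6% and 42.2%. With 3 libraries per group, chains of few counts such as Col2a1 and Col9a1 had intervals too wide to bound a difference.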

Other observations

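Col4a6 and Col18a1 were the 2 collagen chains whose highest library in each of the 3 groups was also that of Myh11, the smooth muscle myosin heavy chain, a pattern chosen after the values were seen. The share of all tested genes with the same match was not counted, so nothing is read from the number of matching chains. Myh11 had 25.2, 158 and 35.9 CPM in MI_ART 1 to 3, 18.6, 21.1 and 99.3 CPM in MI 2 to 4, and 50.6, 253 and 25.0 CPM in Sham 1 to 3. Col4a6 had 6.61, 15.5 and 4.41 CPM in MI_ART 1 to 3, 8.41, 8.69 and 11.1 CPM in MI 2 to 4, and 4.72, 14.6 and 3.77 CPM in Sham 1 to 3. The part of smooth muscle in these levels was not tested.

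In all 9 libraries more genes had exactly 4 counts than exactly 3, with 684 to 936 against 359 to 476 genes, and more had 8 than 7, with 409 to 516 against 167 to 226 genes. Low counts such as those of Col24a1 and Col9a2 in Sham, many of them 4 or 8, carry this feature of the table.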
